A study of Drosophila melanogaster with 6 samples.

Results

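The imaginal disc growth factors (Idgfs) are secreted glycoproteins with the fold of chitinases but without chitinase activity. They were first described as factors that, together with insulin, promote growth of imaginal disc cells in culture, and they are produced in quantity by the larval fat body and by haemocytes, the blood cells of the fly. Adgf-A is a secreted enzyme that breaks down extracellular adenosine, a signal that cells sense through the receptor AdoR. The 5 genes Idgf1, Idgf2, Idgf3, Idgf4 and Idgf5 and the gene Adgf-A were taken by symbol from the 14233 genes of the deposited count table, and all 6 were found.

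The measurements came from wing imaginal discs of Drosophila larvae, epithelial sacs from which the wing and part of the thorax develop. One set of cells expressed RasV12, a mutant Ras protein that is locked in its active state, and control cells carried a transgene named GFP-i in the labels. Both genotypes carried ap-Gal4, which drives transgenes in the dorsal compartment, UAS-myrT (a membrane-bound Tomato protein used for sorting) and a temperature-sensitive Gal80 repressor. Larvae spent 6 days at 18 °C and 3 days at 29 °C, and discs of wandering third-stage larvae were dissociated and sorted for dorsal cells. About 150000 cells per library were read by 3' mRNA sequencing, with 3 libraries per genotype. Nothing in the labels ties a replicate to its own set of larvae, so the p-values measure a spread between libraries that may be technical. Reads come from many cells, so fewer cells of a type and less RNA per cell cannot be told apart.

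The libraries held 11070295 to 15093162 counts in RasV12 and 12650093 to 15581752 in GFP-i. Levels are given as CPM, counts scaled to a common library depth by TMM, which corrects for differences in library composition, and a floor of 3 counts was 0.208 to 0.281 CPM in RasV12 and 0.177 to 0.227 CPM in GFP-i. These floors and all counting intervals cover counting error only. Of the 14233 genes, 9134 had enough counts to be tested, and 1355 of those (14.8%) differed between the genotypes by edgeR's quasi-likelihood test at an adjusted p under 0.05. RasV12 was higher for 836 of these genes and lower for 519 (5.68% of those tested). Had only the library sizes been used for scaling, 615 would have been higher and 911 lower. All 10 genes of the disc epithelium list were tested, at a summed level of 2200 to 2480 CPM in RasV12 and 2750 to 3010 CPM in GFP-i. Of these, 4 fell, led by the wing pouch factor gene nub (log2 fold change -3.58 ± 0.14), and 1 rose, the cadherin gene shg, whose call ended when any library other than the second of each genotype was left out. Ras85D, the fly gene behind RasV12, was at 63.9 ± 14 CPM in RasV12 libraries and 40.4 ± 1.32 CPM in GFP-i libraries (SD, n = 3 each), and reads at transcript ends may miss the transgene.

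Of the 6 members only Idgf4 had enough counts to be tested, and it did not pass, so 0 of 1 tested members was called beside the 14.8% of all tested genes. At adjusted p under 0.05 DESeq2 and limma-voom also called 0 members. Unadjusted values differed between these models, each fitted across all genes. The unadjusted p of Idgf4 was 0.052 by edgeR with TMM scaling, 0.093 by limma-voom and 0.027 by DESeq2. DESeq2 also gave Idgf3 an unadjusted p of 0.019. Other scalings or no filter gave Idgf4 an unadjusted edgeR p of 0.012 to 0.042. The other 5 had at most 16 counts in any library. At these depths a difference in Idgf1, Idgf2, Idgf5 or Adgf-A was not detectable unless it was large. Idgf3 had fewer counts in every RasV12 library than in any GFP-i library, and with its low counts it did not pass either.

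**Figure D1:**
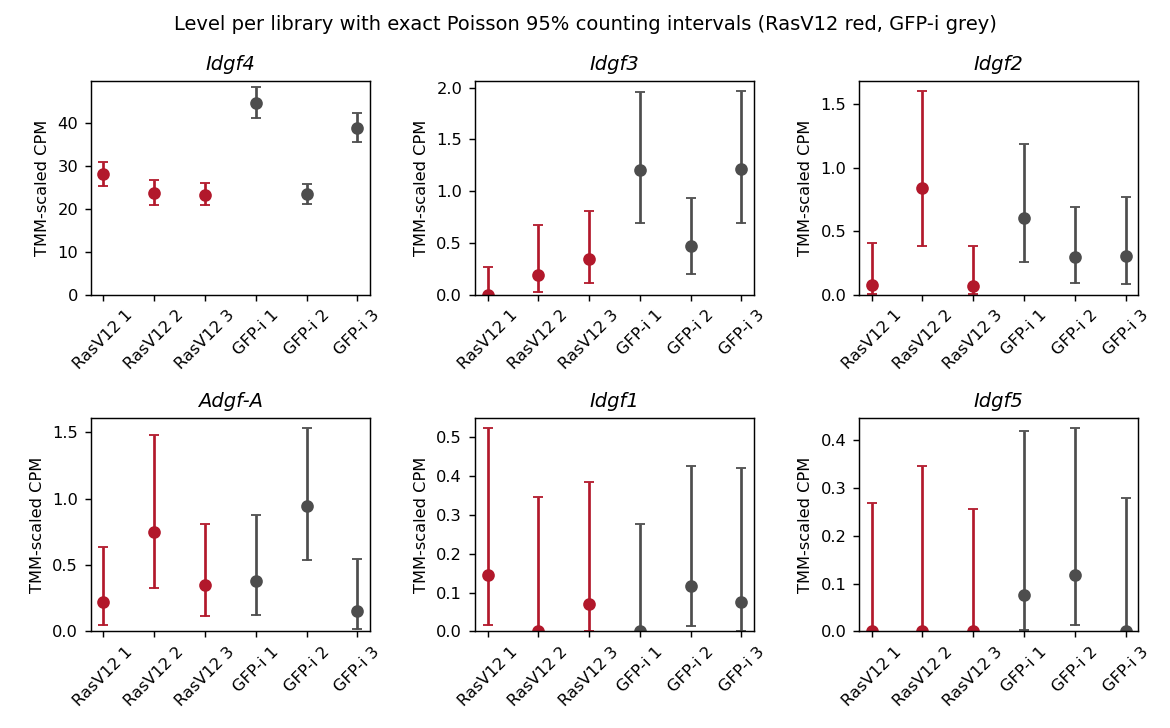
Level of each member in TMM-scaled CPM (vertical axes, which differ between panels) in the 3 RasV12 libraries and the 3 GFP-i libraries. Points are single libraries and bars are exact Poisson 95% intervals for counting error. Idgf4 in GFP-i replicate 2 (23.4 CPM) lies among the RasV12 libraries, and for Idgf3 all RasV12 points lie below all GFP-i points.

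Idgf4, a growth factor of the family that lies apart from the Idgf1 to Idgf3 cluster, maps to X, 9927973 to 9930948 (dm6), on the minus strand, with 3 annotated transcripts of 4 exons each. Its counts were 386, 252 and 336 in RasV12 replicates 1, 2 and 3, and 593, 397 and 515 in GFP-i replicates 1, 2 and 3. These are levels of 28.0, 23.6 and 23.3 CPM in RasV12, and 44.6, 23.4 and 38.9 CPM in GFP-i. The RasV12 libraries lay close together, and GFP-i replicate 2 fell within their range, so the groups overlapped. The means were 24.97 ± 2.65 CPM in RasV12 libraries and 35.6 ± 11 CPM in GFP-i libraries (SD, n = 3 each).

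The log2 fold change of Idgf4, RasV12 over GFP-i, was -0.51 ± 0.23 (SE, n = 3 per group) with a 95% interval of -1.02 to 0.004, and it did not pass (edgeR adjusted p = 0.18). The spread within GFP-i was wider than counting error, since the count of 593 in replicate 1 has an interval of 546 to 643 and the count of 397 in the deeper replicate 2 has one of 359 to 438. Without GFP-i replicate 2, Idgf4 was lower in RasV12, with a log2 fold change of -0.79 ± 0.17 (edgeR adjusted p = 0.019), in a fit that called 10.3% of 9210 tested genes. It did not pass in any of the other 14 alternatives run, where adjusted p was 0.067 to 0.344. In the authors' deposited table the unshrunken log2 fold change of Idgf4 was -0.54 and the adjusted p 0.128, and the gene was not called.

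**Figure D2:**
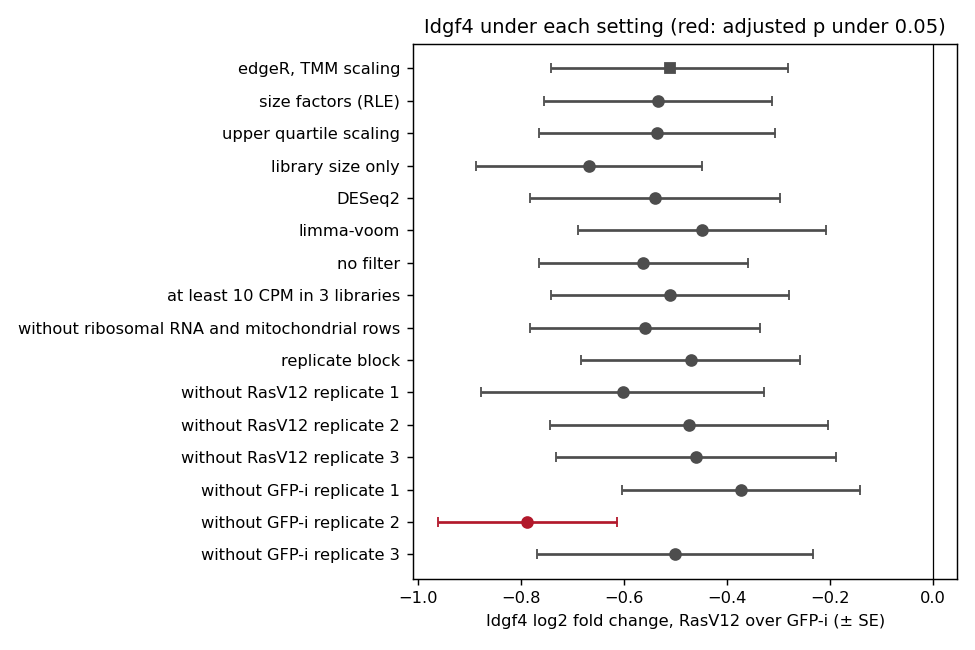
Log2 fold change of Idgf4, RasV12 over GFP-i (horizontal axis, points with SE), in the fit with TMM scaling (square) and under each alternative (circles). All values are negative, from -0.79 to -0.37, and the red point, without GFP-i replicate 2, has an adjusted p of 0.019.

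GFP-i replicate 2 was the highest of the 3 GFP-i libraries for 6 of 12 haemocyte markers with counts in GFP-i and for 5 of 10 fat body markers. The same share over all genes was not computed, so these numbers are no result about the markers. Some rest on few counts, such as He at 1, 3 and 1 and Fbp1 at 0, 5 and 0 in GFP-i replicates 1, 2 and 3. Pxn, Lsp2 and Lsp1gamma are examples in both directions, chosen after their values were seen. The haemocyte gene Pxn, which encodes peroxidasin, had 19, 4 and 37 counts in RasV12, and 10, 77 and 27 counts in GFP-i replicates 1, 2 and 3. The fat body storage protein gene Lsp2 had 0, 0 and 1 counts in RasV12, and 2, 13 and 3 in GFP-i. For both genes GFP-i replicate 2 was the highest library, whereas Lsp1gamma, another storage protein gene, was lowest there among the GFP-i libraries, at 0.828, 0.118 and 0.453 CPM in GFP-i replicates 1, 2 and 3. The part of these tissues in the Idgf4 values was not tested.

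Idgf1, Idgf2 and Idgf3 lie next to each other on 2L in the same orientation. Idgf3, which is also found in the clot that larval haemolymph forms at wounds, maps to 16450907 to 16455194 and overlaps no other annotated gene. Its counts were 0, 2 and 5 in RasV12 replicates 1, 2 and 3, and 16, 8 and 16 in GFP-i replicates 1, 2 and 3. The highest RasV12 library lay below the lowest GFP-i library.

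Summed over libraries, Idgf3 had 7 counts in RasV12 and 40 in GFP-i. The ratio of count rates, taken without TMM scaling, was 0.175 with a 95% counting interval of 0.066 to 0.394. TMM-scaled means were 0.178 ± 0.173 CPM in RasV12 libraries and 0.961 ± 0.424 CPM in GFP-i libraries (SD, n = 3 each). An exact two-sided permutation test over libraries gave p = 0.1, the smallest that 3 against 3 allows (adjusted p = 0.6 over the 6 members). With no filter on low counts the log2 fold change was -2.40 ± 0.81 (edgeR adjusted p = 0.068), and DESeq2 gave -2.44 ± 1.04 (adjusted p = 0.10). Idgf3 was the only member of the 6 whose groups did not overlap, beside 33.6% of all tested genes whose groups did not overlap. The filter on low counts kept Idgf3 itself out of those tested genes.

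Idgf2 maps to 2L, 16447330 to 16450508, and promotes growth of disc cells in culture. It had 1, 9 and 1 counts in RasV12, and 8, 5 and 4 counts in GFP-i. RasV12 replicate 2 held most of the RasV12 counts, and the groups overlapped. The sums were 11 counts in RasV12 and 17 in GFP-i. Their ratio of count rates, taken without TMM scaling, was 0.645 with a counting interval of 0.273 to 1.46 that spans no difference. TMM-scaled means lay closer together, at 0.328 ± 0.446 CPM in RasV12 libraries and 0.40 ± 0.175 CPM in GFP-i libraries (SD, n = 3 each).

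Idgf1, the first gene of the cluster, maps to 2L, 16445278 to 16446793. It had 2, 0 and 1 counts in RasV12, and 0, 2 and 1 counts in GFP-i. Idgf5 maps to 2R, 18393666 to 18395282, and had 0 counts in all 3 RasV12 libraries, and 1, 2 and 0 counts in GFP-i. Over the 41198902 counts of RasV12 in all, the floor of 3 counts was 0.0728 CPM without TMM scaling. A count of 0 has an exact 95% counting interval that reaches 3.69 counts, above that floor. Both genes were at or under the floor in both genotypes, so no fold is given.

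The protein-coding gene CG5888 overlaps Idgf1 and Idgf2 on the other strand. It had 54, 31 and 119 counts in RasV12, and 91, 372 and 122 counts in GFP-i, more than either member in every library. No source used here says whether counting used strand, so the values of Idgf1 and Idgf2 are uncertain. CG5888 itself did not pass (log2 fold change -1.33 ± 0.53, edgeR adjusted p = 0.144). Of the 2 nearest genes on each side of the cluster, dac, a transcription factor gene of disc patterning, had a log2 fold change of -0.47 and CaBP1 one of -0.41, and neither passed (edgeR adjusted p = 0.323 and 0.088). The other neighbours, jhamt and Nepl8, had at most 7 counts in any library.

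Around Idgf4 the 2 nearest genes on each side, CG1986, CG15249, CG1791 and CG1889, had at most 5 counts in any library. Beside Idgf5, the glutathione transferase gene GstE1 had a log2 fold change of 0.48 ± 0.40 and did not pass (edgeR adjusted p = 0.471). Also beside Idgf5, GstE10 and BomS6 had at most 7 counts in any library. None of the neighbours tested was therefore called.

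Adgf-A maps to 3L, 17751731 to 17764158, on the minus strand, with 2 transcripts of 4 exons. It had 3, 8 and 5 counts in RasV12, and 5, 16 and 2 counts in GFP-i. GFP-i replicates 2 and 3 were its highest and lowest libraries, and the groups overlapped. The sums were 16 counts in RasV12 and 23 in GFP-i. Their ratio of count rates, taken without TMM scaling, was 0.694 with a counting interval of 0.343 to 1.37. TMM-scaled means lay closer together, at 0.438 ± 0.278 CPM in RasV12 libraries and 0.490 ± 0.408 CPM in GFP-i libraries (SD, n = 3 each). Without a filter its log2 fold change was -0.30 ± 0.77 (edgeR adjusted p = 0.856). Adgf-A2 overlaps it on the same strand and Adgf-B lies 1143 bases away, and neither gene was matched in the counts. Whether reads of Adgf-A2 were counted as Adgf-A is not known, so the values of Adgf-A are uncertain. CG32181 and CG32182, which overlap it on the other strand, had at most 2 counts in any library. The neighbour Ccn had a log2 fold change of -0.89 ± 0.66 and did not pass (edgeR adjusted p = 0.429).

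The ratio of each pair of members within a library does not depend on scaling. Of the 15 pairs, 2 had log2 ratios that did not overlap between the genotypes. The 33.6% of single tested genes without overlap is an unlike measure, since it rests on scaled levels of genes past the filter. A share over pairs of other genes was not computed, so the count is no result about the members. One of the 2 pairs, Idgf5 to Adgf-A, rests on the prior count of 0.5, since Idgf5 had 0 counts in RasV12. The other was Idgf3 to Idgf4. This ratio was lower in RasV12 than in GFP-i by a log2 difference of -2.17. Its exact permutation p was 0.1, the smallest possible, and 0.75 when adjusted over the 15 pairs. Without GFP-i replicate 2, 5 pairs did not overlap, and without RasV12 replicate 2 or 3 the number was 4, but separation is reached more easily with 2 libraries in a group.

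Among genes of mean level at or above 10 CPM, those most like Idgf4 over the 6 libraries were the splicing factor gene Prp31, the spliceosomal protein gene SmD1 and the RNA exosome gene Rrp4. Their Pearson r with Idgf4 on the log2 scale was 0.997, 0.986 and 0.986. These are the highest of 4984 genes compared over all 6 libraries, which differ in depth and genotype. The r was thus taken over both genotypes together. The log2 fold changes of Prp31, SmD1 and Rrp4 were -0.16, -0.20 and -0.26.

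The chitinase family, to which the Idgfs belong by fold, held genes that changed in both directions. CG5210, whose current symbol is Idgf6 and which is therefore a further growth factor of the family, had 135, 60 and 82 counts in RasV12, and 411, 198 and 245 counts in GFP-i. Its groups did not overlap. It fell to 7.04 ± 2.40 CPM in RasV12, against 20.4 ± 9.76 CPM in GFP-i (SD, n = 3 each), with a log2 fold change of -1.52 ± 0.38 by SE and an adjusted p of 0.031 by edgeR. Leaving out RasV12 replicate 2, RasV12 replicate 3 or GFP-i replicate 3 ended the call (adjusted p = 0.135, 0.093 and 0.068).

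Cht6, a chitinase-like gene, rose to 733 ± 90.0 CPM in RasV12, against 88.1 ± 7.05 CPM in GFP-i, with a log2 fold change of 3.06 ± 0.14 (edgeR adjusted p = 1.8e-06). Cht7 rose by a log2 fold change of 0.47 ± 0.13, a call lost at a threshold of 0.01 and in 9 other alternatives. Among these was every fit that left out 1 library other than RasV12 replicate 2. Of the 11 family genes 7 were tested, of which 42.9% were called beside 14.8% of all tested genes. Among them 2 rose, 1 fell and 4 did not pass, with a median log2 fold change of 0.18 beside 0.02 over all tested genes. Cht5 had a log2 fold change of -0.66 and did not pass (edgeR adjusted p = 0.066). It passed by DESeq2 (adjusted p = 0.027). By edgeR it passed without a filter, with scaling by library size only and without RasV12 replicate 3 (adjusted p = 0.0293, 0.0357 and 0.0395). No gene of the family fell without RasV12 replicate 2 or GFP-i replicate 3. By DESeq2, without a filter and with scaling by library size only, 2 fell.

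**Figure D3:**
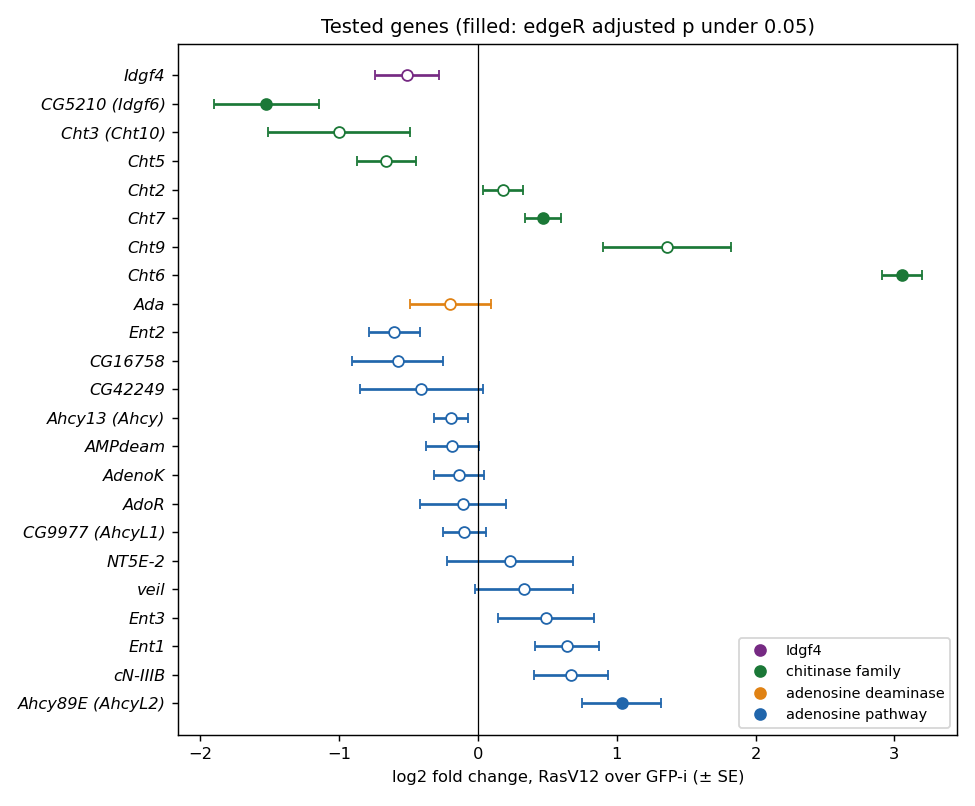
Log2 fold change, RasV12 over GFP-i (horizontal axis, points with SE), of Idgf4 and of the tested genes of the chitinase family, the adenosine deaminase Ada and the adenosine pathway. Filled points passed the test. Cht6 lies farthest to the right at 3.06 and CG5210 (Idgf6) farthest to the left at -1.52.

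Genes that make and organise chitin, the polymer that chitinases cleave, were described beside the family. Of 12 listed genes 11 were tested. Of these, 3 rose and none fell, so 27.3% were called beside 14.8% of all tested genes. The median log2 fold change was 0.02, beside 0.02 over all tested genes. Those that rose were obst-A, a chitin-binding matrix protein gene (1.13 ± 0.15), and the chitin deacetylase genes serp (0.95 ± 0.16) and verm (0.72 ± 0.13). The call of verm was lost without GFP-i replicate 3 (edgeR adjusted p = 0.065). By edgeR 1 gene of the list fell without RasV12 replicate 2, without a filter and with scaling by library size only. Without ribosomal RNA and mitochondrial rows 1 fell as well, and by DESeq2 2 fell. The chitin synthase gene kkv stood at 164 ± 20.2 CPM in RasV12 libraries and 161 ± 15.8 CPM in GFP-i libraries, with a log2 fold change of 0.02.

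Of the 9 genes listed for the haemolymph clot, in which Idgf3 is also found, 5 were tested. Of these, 3 rose and none fell, so 60% were called beside 14.8% of all tested genes. The median log2 fold change was 1.60 beside 0.02 over all tested genes. Rfabg (-1.01) and Lsp1beta (0.60) did not pass (edgeR adjusted p = 0.382 and 0.166). The gene of the integrin ligand tiggrin, Tig, had 2028, 1569 and 1997 counts in RasV12, and 35, 115 and 83 counts in GFP-i. Its log2 fold change was 4.77 ± 0.30 (SE; edgeR adjusted p = 2.1e-05), and the groups did not overlap. The clotting factor gene fon rose by 2.74 ± 0.33, and Tg, which encodes the transglutaminase that cross-links clot proteins, rose by 1.60 ± 0.21 (log2, SE). Hml, a clot protein gene and haemocyte marker, had 2, 5 and 14 counts in RasV12, and 3, 8 and 12 counts in GFP-i, too few to test.

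In the adenosine deaminase family, 4 of 7 listed genes were matched and only Ada, the intracellular-type deaminase, was tested. Ada had 51, 39 and 34 counts in RasV12, and 52, 57 and 51 counts in GFP-i. Its groups overlapped in CPM, and its log2 fold change of -0.20 ± 0.29 did not pass (edgeR adjusted p = 0.704). Adgf-C had 2, 3 and 4 counts in RasV12 and 3, 3 and 2 counts in GFP-i. Adgf-E had a single count in GFP-i replicate 1.

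The adenosine pathway list holds the receptor, transporters and enzymes that handle adenosine. Of its 16 genes 14 were tested and 1 rose, so 7.14% were called beside 14.8% of all tested genes. The other 13 did not pass. The median log2 fold change was -0.10 beside 0.02 over all tested genes. Ahcy89E (AhcyL2), a relative of the enzyme that splits S-adenosylhomocysteine, rose by a log2 fold change of 1.04 ± 0.28 (edgeR adjusted p = 0.035). The call ended when any library but RasV12 replicate 3 or GFP-i replicate 1 was left out (adjusted p = 0.061 to 0.14), with the replicate block (adjusted p = 0.094) and when libraries were scaled by size alone (adjusted p = 0.058). AdoR was at 25.7 ± 10.3 CPM in RasV12 libraries and 27.8 ± 5.72 CPM in GFP-i libraries (SD, n = 3 each), with a log2 fold change of -0.11. The nucleoside transporter gene Ent2 was at 104 ± 18.9 CPM in RasV12 libraries and 158 ± 30.4 CPM in GFP-i libraries. Its log2 fold change of -0.60 ± 0.18 missed the threshold (edgeR adjusted p = 0.052), and it passed in 9 alternatives (adjusted p = 0.012 to 0.047), among them the fits that left out RasV12 replicate 2 or GFP-i replicate 2.

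Haemocytes and fat body are known sources of Idgf and Adgf-A transcripts, so their markers were measured in the same libraries. Summed haemocyte markers were at 107 to 129 CPM in RasV12 and 158 to 206 CPM in GFP-i, but most of that sum was ush. Without ush the sums were 24.8 to 37.1 CPM in RasV12 and 26.1 to 50.7 CPM in GFP-i, and the groups overlapped. Of 14 listed markers 8 were tested. Of these, 3 fell and none rose, so 37.5% were called beside 14.8% of all tested genes. Those that fell were the collagen genes vkg (-2.18 ± 0.35) and Cg25C (-1.72 ± 0.32) and the transcriptional cofactor gene ush (-0.69 ± 0.13). The scavenger receptor gene crq and the crystal cell factor gene lz had positive log2 fold changes of 0.21 and 0.68 and did not pass. The defining marker eater had 0, 1 and 0 counts in RasV12 and 0 counts in all GFP-i libraries. He had 0 counts in all RasV12 libraries, and 1, 3 and 1 counts in GFP-i. Without GFP-i replicate 2, 1 haemocyte marker rose.

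Summed fat body markers were at 27.5 to 40.7 CPM in RasV12 and 17.4 to 24.8 CPM in GFP-i, a sum that was mostly Yp1 and Lsp1beta. Without Yp1 the sums were 12.5 to 18.0 CPM in RasV12 and 10.4 to 17 CPM in GFP-i, and the groups overlapped. Of 10 listed markers 4 were tested. Yp1, a yolk protein gene, rose by 1.64 ± 0.25 and none fell, so 25% were called beside 14.8% of all tested genes. The defining marker Fbp1 had 0 counts in all RasV12 libraries, and 0, 5 and 0 counts in GFP-i replicates 1, 2 and 3. The part of haemocytes and fat body in the low counts of Idgf3 in RasV12 was not tested.

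**Figure D4:**
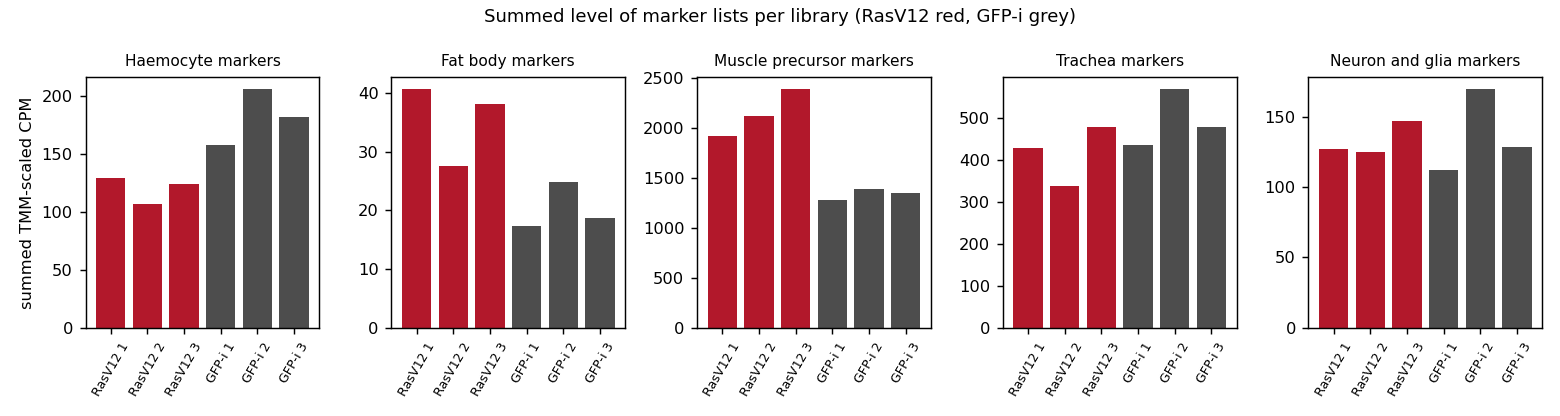
Summed TMM-scaled CPM (vertical axes, from 0) of 5 lists of cell type markers in each library, 1 bar per library. The haemocyte sum is lower, and the fat body and muscle precursor sums higher, in all 3 RasV12 libraries than in any GFP-i library, but single genes hold much of these sums. Without ush and without Yp1 the haemocyte and fat body groups overlap. Without kirre the muscle precursor sum, which is then mostly Ama, is lower in RasV12.

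The remaining marker lists did not move as one. Of 10 muscle precursor markers 1 rose, kirre (log2 fold change 1.02), and 5 fell (60% called beside 14.8% of all tested genes). Their median log2 fold change was -1.245, beside 0.02 over all tested genes. Those that fell were Him (-3.44), zfh1 (-2.18), kon (-2.05), htl (-2.04) and Ama (-1.28). Mef2 (0.33) and BM-40-SPARC (0.48) were higher in every RasV12 library than in any GFP-i library. Neither passed (edgeR adjusted p = 0.152 and 0.13). The negative log2 fold changes of twi (-1.21) and stumps (-0.37) did not pass either. Of 7 tested trachea markers 2 rose and 3 fell (71.4% called). The other trachea markers tested, trh (-0.58) and vvl (-0.46), did not pass (edgeR adjusted p = 0.061 and 0.067). In the alternatives 2 to 5 trachea markers fell, with 5 by DESeq2, without a filter and with scaling by library size only. Of 8 neuron and glia markers 1 rose (moody) and 1 fell (brp), so 25% were called. The summed muscle precursor level, 1920 to 2390 CPM in RasV12 and 1280 to 1390 CPM in GFP-i, is mostly kirre, at 1951 CPM in RasV12 libraries and 962 CPM in GFP-i libraries. Without kirre the sum was 178 to 203 CPM in RasV12 and 346 to 392 CPM in GFP-i. Most of that remainder was again a single gene, Ama, at 108 CPM in RasV12 libraries and 261 CPM in GFP-i libraries. Without GFP-i replicate 1, 2 or 3 or RasV12 replicate 1, no neuron or glia marker rose, and without GFP-i replicate 2 none fell.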

How the data were processed

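The members and lists were chosen with earlier results of these data known. Trimmomatic 0.33, STAR 2.3.0e, bedtools 2.17, DESeq2 and the genome build dm6 are named in the submitters' processing notes. How reads were counted, with which strand setting and which annotation, is not given in those notes or the labels. The authors deposited raw counts per gene, with columns of their own comparison, per the file headers: baseMean (a signal, the mean of scaled counts), log2 fold changes, a test score, p-values and a call per gene. Of 14018 gene identifiers shared with Ensembl release 115, 98.4% had identical coordinates.

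Counts were tested with edgeR 4.0.16 in R 4.3.3, using TMM scaling, filterByExpr, robust quasi-likelihood F tests, two-sided, and Benjamini-Hochberg adjustment over 9134 genes at a threshold of 0.05. The fit was also run on counts simulated from its own means and spreads, with changes placed only in genes above a minimum level. That run cannot speak for members too low to test. SDs are over 3 libraries, and standard errors come from the F statistic. Counting intervals are exact (Poisson or conditional binomial). Members too low to test were given as counts, with their fold changes from a fit without the filter, and their exact permutation tests (scipy 1.17.1) were added after the counts were seen, as were marker sums without ush, Yp1 or kirre. Ratios used a prior count of 0.5, and likeness used log2 CPM with a prior count of 2. DESeq2 1.42.0 and limma 3.58.1 (voom) were alternatives.

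Named genes were the members, up to 3 called genes per list, overlapping and neighbouring genes, and the genes most like Idgf4. The genes most like the other members are not given, since their counts are too low. AdoR, Ent2, Ada, Cht5, kkv, the other Adgf genes and the defining or extreme markers were named after their values were seen. Rows of ribosomal RNA and the mitochondrial chromosome held 13.9 to 20.9% of counts. No pair of libraries held identical values or agreed within sampling noise.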

Additional observations from a re-analysis of the deposited data

How the results depend on the processing

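Results were recomputed with 3 other scalings, with DESeq2 and limma-voom, with 2 other filters, at a threshold of 0.01, after removal of ribosomal RNA and mitochondrial rows, with a replicate block and after leaving out each library. The log2 fold change of Idgf4 was negative in all 15, and ranged from -0.79 to -0.37 when 1 library was left out; only the fit without GFP-i replicate 2 passed, which gave 0 to 1 members called. Idgf3 could be tested in 6 fits, that without a filter included, at -3.37 to -1.76, and passed in none (adjusted p = 0.064 to 0.175). Over all genes 1355 were called, 674 at a threshold of 0.01, 701 with the replicate block, and 741 to 1521 when 1 library was left out. The number of pairs of members without overlap was 2 to 5 when 1 library was left out. With the replicate block Idgf4 stood at -0.47 (adjusted p = 0.254). The labels do not say whether replicate numbers pair the samples, and pairing was not tested. Deviations of same-numbered libraries correlated at -0.03, -0.42 and -0.11. The highest correlation was between RasV12 replicate 3 and GFP-i replicate 2 (0.56). Scaling by library size only moved the median of all tested genes to -0.14, where Idgf4 stood at -0.67. Among list counts, the fall of haemocyte markers was 1 with the filter of 10 CPM in 3 libraries, which removes low genes by construction. Depth limits Idgf1, Idgf2, Idgf3, Idgf5 and Adgf-A, which had 0 to 16 counts per library.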
